A study of Mus musculus with 24 samples.

Results

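The spliceosome removes introns from pre-mRNA, and 40 genes that encode core proteins of the major spliceosome were followed here through neural differentiation of mouse embryonic stem cells with a normal or a slow RNA polymerase II. They were chosen by name. Most have a place in the U1, U2, U4/U6 and U5 small nuclear ribonucleoproteins (snRNPs) or in the Prp19 complex. The others are the U2AF subunits, proteins that recruit the U4/U6.U5 tri-snRNP, and DEAH helicases. The rule used no measured value, although earlier results of these data were known when it was set. All 40 had counts, and all 40 were among the 16627 genes tested, of 22667 listed in the expression table. The cells were WT (labelled wt/wt) or slow/slow, labelled Polr2a[R749H/R749H] and so carrying on both alleles a change of arginine to histidine in the catalytic subunit of RNA polymerase II. Each genotype was sampled as embryonic stem cells (ESCs) grown in 2i medium with LIF, at day 7 of differentiation as neural progenitors (NPCs), as PSA-NCAM+ cells purified at day 10 for the polysialylated neural cell adhesion molecule, and as neurons replated at day 7 and grown for 14 further days. There were 3 replicates in each of the 8 groups, 24 samples in all. Per the study's methods both genotypes were E14 ESCs, the slow/slow cells had been made from the parental WT cells by repeated gene targeting, and per the labels the plating density at the start of differentiation was not the same for the genotypes, so that line, density and genotype cannot be told apart.

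Each snRNP is built around a small nuclear RNA, which for U1, U2, U4 and U5 is held in a ring of Sm proteins. U1 recognises the 5′ splice site, U2AF and then U2 with its SF3a and SF3b complexes recognise the branch point and the 3′ splice site, and the U4/U6.U5 tri-snRNP then joins. Helicases unwind the snRNAs, the Prp19 complex enters, and the transesterification steps follow. These proteins are made in almost every cell, yet inherited mutations in Prpf3, Prpf4, Prpf6, Prpf8, Prpf31 and Snrnp200 are known for retinitis pigmentosa, a disease of photoreceptor neurons, and mutations in Eftud2 and Sf3b4 for craniofacial malformations.

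Per the study's methods the RNA of ESCs, NPCs and neurons came from 3 independent differentiation experiments, which is not said of the PSA-NCAM+ cells, and the labels only number the replicates, so that p-values measure the spread between these samples. Totals ranged from 32974432 to 104466886 counts per library. Replicate 1 of the PSA-NCAM+ cells stood apart from replicates 2 and 3 in both genotypes, and values without replicate 1 of both genotypes are given beside the genotype calls that they change or that a single library decides. Among cell type markers, pluripotency genes summed to 6211 to 6684 CPM in WT ESCs, 2365 to 2445 CPM in WT NPCs and 104 to 138 CPM in WT neurons. Of the neural progenitor markers, Pax6 read 4.18, 4.07 and 4.63 CPM and Nes read 34.1, 32.9 and 32.3 CPM in WT NPCs, against 0.228, 0.172 and 0.162 CPM and 19.3, 18.8 and 18.0 CPM in WT ESCs, so the WT cultures labelled NPCs held little of Pax6 and still held pluripotency transcripts. All 5 progenitor markers, 3 called higher and 1 lower, summed to 400 to 407 CPM in WT ESCs and 273 to 289 CPM in WT NPCs. The 10 neuron markers, 6 called higher and 2 lower, summed to 211 to 255 and 104 to 113 CPM in these groups. Neuron markers summed to 5208 to 5668 CPM in WT neurons and 3956 to 4200.1 CPM in slow/slow neurons, and proliferation markers to 1307 to 1656 CPM and 1982 to 2101 CPM. In bulk samples of this kind, fewer cells of a type and less RNA per cell cannot be told apart. The median log2 change of all tested genes on chromosome 8 was 0.45, 0.49, 0.46 and 0.44 in ESCs, NPCs, PSA-NCAM+ cells and neurons, and on chromosome 15 it was -0.60, -0.57, -0.56 and -0.08, values that are repeated beside the members on those chromosomes.

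The member whose splicing differed most between genotypes was U2af1, the small subunit of U2AF, which binds the AG of the 3′ splice site, and the exons concerned are printed first. U2af1 has a pair of neighbouring 67-base exons that are known as alternatives to each other. In the GRCm38 annotation they lie on the minus strand at chr17:31652502-31652568 and chr17:31651646-31651712, with 856 bases from start to start, and both are internal exons of the transcript. They are written 5′ to 3′ with the 23 of 67 positions that differ between them in capitals, which leaves 65.7% of positions identical.
U2af1 upstream exon: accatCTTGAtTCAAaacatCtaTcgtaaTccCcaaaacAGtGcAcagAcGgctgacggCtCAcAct
U2af1 downstream exon: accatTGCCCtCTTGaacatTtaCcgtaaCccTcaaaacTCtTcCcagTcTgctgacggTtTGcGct

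The third exon described here is the 80-base exon of Snrpa1, the A′ protein of the U2 snRNP, at chr7:66070119-66070198 on the plus strand of GRCm38, shown because its inclusion fell in WT neurons.
Snrpa1 exon: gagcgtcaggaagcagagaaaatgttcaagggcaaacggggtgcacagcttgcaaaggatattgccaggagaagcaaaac

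No letter of the Snrpa1 exon is in capitals, since it has no partner to be compared with. Neither 67 nor 80 is a multiple of 3, so that skipping any of these exons alone shifts the reading frame.

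Levels were compared between members only per length, as TMM-scaled CPM (counts scaled to the size of the library) per kilobase of annotated exon. In WT ESCs the highest were Snrpb, an Sm ring protein, at 172 CPM per kb, Prpf8, the protein that holds the catalytic centre, at 127 CPM per kb, and U2af2, the large U2AF subunit that binds the polypyrimidine tract, at 117 CPM per kb. Sf3b4 was the lowest at 7.27 CPM per kb, after Prpf3 at 17.3 CPM per kb. The order was not the same by the authors' mean RPKM, and the cause was not tested. On that scale the highest in WT ESCs were Snrpg at 424, U2af1 at 314 and Snrpe at 292, and the lowest was Prpf4 at 21.7. Both scales therefore placed the members within a wide range, but they ranked short genes such as Snrpg differently. For 12 of the 40 members another annotated gene or pseudogene held a stretch at least 95% identical over at least 200 bases, so that reads may have been shared: Cdc5l with 10 other genes, U2af1, Snrpc and Snrpg with 3 each, Snrpd2 and Snrpa with 2 each, and Snrpd1, Snrpe, Snrpf, Sf3b4, U2af2 and Prpf19 with 1 each. Snrpd3, Snrpf, Snrpa, Sf3a2, Sf3b3 and Prpf6 overlapped coding genes on the other strand. Since the use of strand in counting is not stated in the sources used here, their values carry the same uncertainty. Snrpa1 overlapped the coding gene Gm45213 on its own strand, which the use of strand would not separate, and its values carry that uncertainty too.

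The first comparison set the expression of these genes in slow/slow cells against that in WT cells at each stage. In the fit of all libraries, members of the spliceosome were higher in slow/slow than in WT NPCs and PSA-NCAM+ cells, moderately and in most role groups, while in neurons the calls went both ways and were few. The 40 members summed to 8772, 8942 and 9427 CPM in the WT ESC libraries and 9940.0, 10688 and 10100.1 CPM in the slow/slow ESC libraries. In NPCs the sums were 6576, 6559 and 6573 CPM in WT and 8783, 8726 and 8851 CPM in slow/slow cells. In both stages every slow/slow library lay above every WT library. In PSA-NCAM+ cells the sums were 5560.4, 6796 and 6557 CPM in WT and 5957, 8983 and 8819 CPM in slow/slow cells, and replicate 1 was the lowest of its genotype in both. The 2 groups overlapped, but by the replicate numbers, which pair these samples, slow/slow cells had the higher sum in 3 of 3 pairs. In neurons the sums were 5759, 5999 and 5992 CPM in WT and 5777, 5897 and 5773 CPM in slow/slow cells, which overlapped. The median log2 CPM over the members did not overlap in neurons. It was 6.50, 6.60 and 6.59 in the WT libraries and 6.63, 6.72 and 6.69 in the slow/slow libraries.

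**Figure D1:**
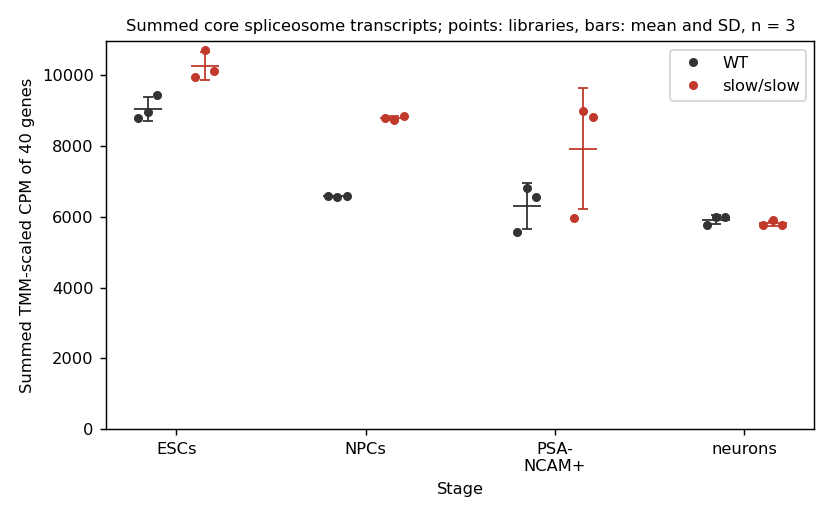
Summed TMM-scaled CPM of the 40 members in each of the 24 libraries, by stage and genotype, with 1 point per library. The slow/slow points lie above the WT points in ESCs and NPCs, 1 library of each genotype is low in PSA-NCAM+ cells, and the genotypes overlap in neurons.

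By edgeR's quasi-likelihood test with Benjamini-Hochberg adjustment over all tested genes, which gives every FDR of expression below, 8 members were higher and 1 was lower in slow/slow ESCs, where 18.5% of all tested genes were called higher and 21.9% lower. In NPCs 24 members were higher and 1 was lower, against 29.3% of all genes higher and 27.4% lower. In PSA-NCAM+ cells 20 were higher and 2 lower, against 28.6% and 28.1%. In neurons 3 were higher and 4 lower, against 23.4% and 28.4%. Set beside these percentages, the share of the 40 members called higher in this fit was near the background in ESCs, above it in NPCs and PSA-NCAM+ cells, and below it in neurons. The median log2 change of the members was 0.16 in ESCs, 0.34 in NPCs, 0.32 at the PSA-NCAM+ stage and 0.09 in neurons, beside -0.02, 0.01, -0.01 and -0.06 over all genes. The changes were small: 1, 8, 3 and 2 members passed both the FDR and 1.5-fold in ESCs, NPCs, PSA-NCAM+ cells and neurons, where 23.7%, 36.4%, 37.1% and 33.0% of all genes did. A called change of over 2-fold was seen for 0 members at any stage, against 13.7%, 21.5%, 22.8% and 20.2% of all genes, and by both measures the share of the members lay below the background at each stage. The split in neurons depended on the scaling of the libraries: upper-quartile scaling, which moved the median log2 change of all genes there by 0.14, called 14 members higher and 2 lower, while 30.4% and 21.0% of all genes were called higher and lower with it. Fits of only the samples compared called 20 members higher and 1 lower in ESCs and 23 higher and 5 lower in neurons. No share of all genes was taken for those fits.

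Markers of other cell types and of proliferation also differed between the genotypes, and their part in the results on the members was not tested. In ESCs the 12 proliferation markers, with 1 called higher, summed to 6031 to 6388 CPM in WT and 6648 to 7167 CPM in slow/slow cells. The 10 neuron markers, 4 called higher, summed there to 211 to 255 CPM in WT and 337 to 398 CPM in slow/slow cells. In NPCs, where most members were called higher, the proliferation sum was 4285 to 4363 CPM in WT and 5202 to 5316 CPM in slow/slow cells, with 3 markers higher and 1 lower. The 7 pluripotency markers, 5 called lower, summed to 2365 to 2445 CPM in WT and 1497 to 1716 CPM in slow/slow cells. Of the 10 neuron markers in NPCs 8 were higher, with sums of 104 to 113 CPM in WT and 273 to 318 CPM in slow/slow cells. Slow/slow NPCs thus had more of the neuron markers and less of the pluripotency markers than WT NPCs. In PSA-NCAM+ cells 5 of 12 proliferation markers were higher, with sums of 2491 to 3741 CPM in WT and 2532 to 5221 CPM in slow/slow cells, and in both genotypes the lowest sum was that of replicate 1. All 10 neuron markers were higher there, with sums of 89.4 to 138 CPM in WT and 296 to 619 CPM in slow/slow cells. The 5 neural progenitor markers were all higher too, with sums of 195 to 255 CPM in WT and 455 to 599 CPM in slow/slow cells, while 5 of 7 pluripotency markers were lower, with sums of 1554 to 2109 CPM in WT and 808 to 848 CPM in slow/slow cells. In neurons the direction of the neuron markers was the opposite, with 6 of 10 lower and sums of 5208 to 5668 CPM in WT and 3956 to 4200.1 CPM in slow/slow cells. Proliferation markers were higher in slow/slow neurons, 6 of 12, with sums of 1307 to 1656 CPM in WT and 1982 to 2101 CPM in slow/slow cells. The 8 glia markers, 3 higher and 4 lower in slow/slow neurons, summed there to 203 to 254 CPM in WT and 103 to 109 CPM in slow/slow cells. The 11 markers of endoderm, mesoderm or fibroblasts summed to 146 to 153 CPM in WT ESCs. In NPCs they summed to 405 to 444 CPM in WT and 221 to 294 CPM in slow/slow cells, with 3 higher and 3 lower. Their PSA-NCAM+ sums were 517 to 883 and 523 to 1292 CPM, with 2 higher and 3 lower. In neurons 8 were higher and 3 lower. Except for 1 glia marker in ESCs of both genotypes, 0 markers were at 0 in all libraries of a group.

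The count in PSA-NCAM+ cells rested on single libraries. It was 32 without slow/slow replicate 1, 14 without WT replicate 1, 13 without slow/slow replicate 2 and 14 without slow/slow replicate 3, and it was 29 (28 higher, 1 lower) without replicate 1 of both genotypes, while a fit of the PSA-NCAM+ libraries alone called 3. Without replicate 1 of both genotypes 34.1% of all genes were called higher and 33.9% lower. That fit lost the call of Ddx23, at a log2 change of -0.12 (FDR = 0.0871), and added Sf3b1 at 0.26 (FDR = 0.0103), U2af1 at 0.29 (FDR = 0.00368), Snrpa at 0.27 (FDR = 0.0111), Snrpd3 at 0.33 (FDR = 0.00285), Snrpe at 0.34 (FDR = 0.0104), Snrnp40 at 0.51 (FDR = 3.42e-06), Prpf19 at 0.42 (FDR = 3.62e-05) and Plrg1 at 0.36 (FDR = 0.000118). At this stage the replicate numbers paired the samples, and the fit with the replicate as a block called 27 members (25 higher, 2 lower), adding Snrpd3 at a log2 change of 0.31 (FDR = 0.00119), Snrpe at a log2 change of 0.31 (FDR = 0.00507), Snrnp40 at a log2 change of 0.32 (FDR = 0.0111), Prpf19 at a log2 change of 0.29 (FDR = 0.0061) and Plrg1 at a log2 change of 0.22 (FDR = 0.0337), while it called 30.8% of all genes higher and 31.9% lower. Calls that survived the removal of any 1 library numbered 8 of 9 in ESCs, 21 of 25 in NPCs, 10 of 22 at the PSA-NCAM+ stage and 5 of 7 in neurons.

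**Figure D2:**
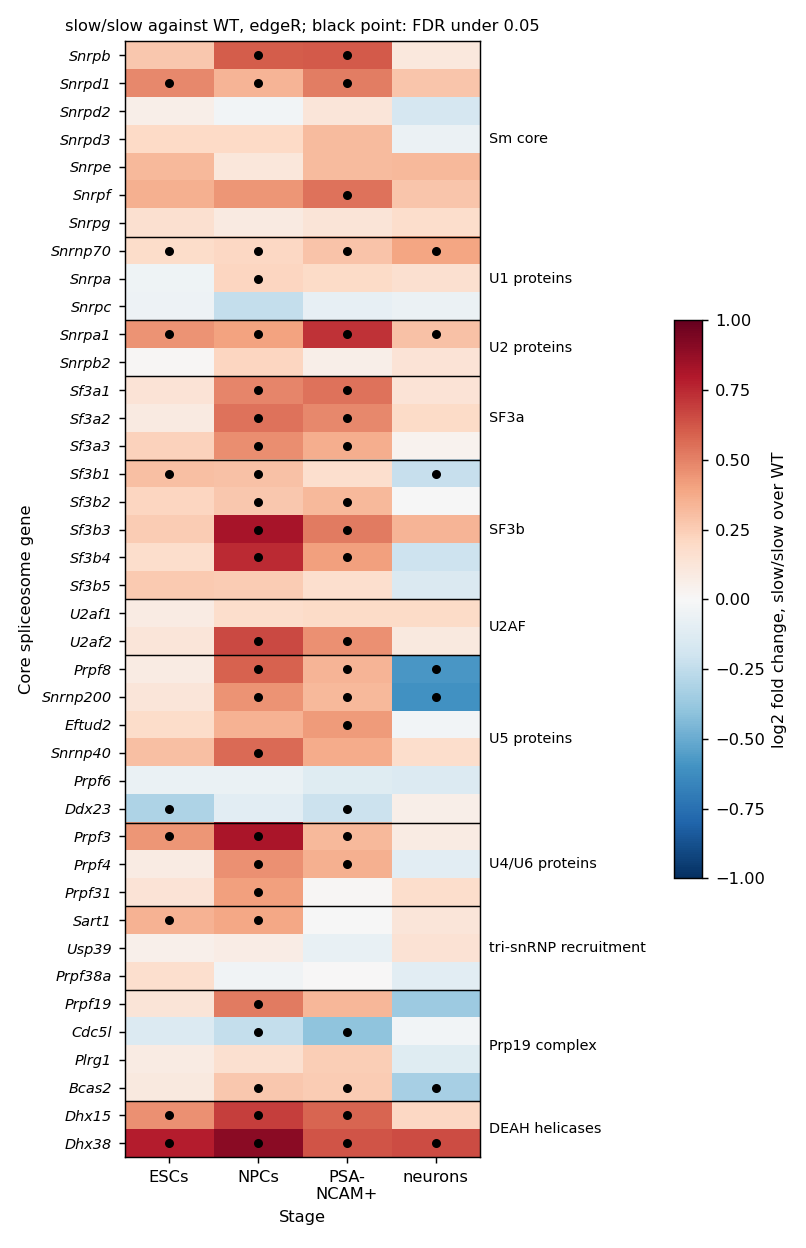
Log2 change of each of the 40 members between slow/slow and WT cells at the 4 stages, as coloured cells grouped by role, with a black point where the FDR was under 0.05. Higher values fill most of the NPC and PSA-NCAM+ columns, where 24 and 20 members were called higher, and the neuron column holds 7 points of both directions.

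Over the 4 stages, 22 members were called only higher, 2 only lower and 4 in both directions, while 29.8%, 33.8% and 24.9% of all tested genes had these patterns. The 2 members that were only lower were Ddx23 and Cdc5l, and the 4 that were called in both directions were Sf3b1, Prpf8, Snrnp200 and Bcas2, each higher at an earlier stage and lower in neurons. Only Snrnp70, Snrpa1 and Dhx38 were called at all 4 stages, each time higher, against 13.1% of all genes called at all 4 in any direction, and Sf3b1 joined them, with both directions, when replicate 1 of both PSA-NCAM+ groups was left out. The 12 members that were called at none were Snrpd2, Snrpd3, Snrpe, Snrpg, Snrpc, Snrpb2, Sf3b5, U2af1, Prpf6, Usp39, Prpf38a and Plrg1, with 11.6% of all genes in that class, and of these 12 Snrpd3, Snrpe and Plrg1 were called in PSA-NCAM+ cells with the replicate block, the same 3 and U2af1 there without replicate 1 of both genotypes, and Snrpb2, Snrpe, U2af1 and Usp39 in neurons with upper-quartile scaling.

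The Sm proteins Snrpb, Snrpd1, Snrpd2, Snrpd3, Snrpe, Snrpf and Snrpg form the ring on the snRNA, and of these 7 genes 1 was called higher in ESCs, 2 in NPCs, 3 at the PSA-NCAM+ stage and 0 in neurons, with 0 lower at any stage. In WT cells, Snrpb read 306, 329 and 383 CPM in ESCs, 239, 229 and 235 in NPCs, 215, 229 and 207 at the PSA-NCAM+ stage and 205, 230.2 and 235 in neurons. Snrpb in slow/slow cells read 375, 467 and 385 CPM in ESCs, 361, 347 and 363 in NPCs, 262, 349 and 383 at the PSA-NCAM+ stage and 229, 254 and 237 in neurons. For Snrpb, all 3 slow/slow libraries lay above all 3 WT libraries in NPCs and PSA-NCAM+ cells, and the genotypes overlapped in ESCs and neurons. Snrpb had log2 changes of 0.27 ± 0.11 (FDR = 0.0646) in ESCs, 0.61 ± 0.11 (FDR = 0.000146) in NPCs, 0.61 ± 0.11 (FDR = 0.00013) at the PSA-NCAM+ stage and 0.10 ± 0.11 (FDR = 0.464) in neurons. Snrpb was therefore higher in NPCs and PSA-NCAM+ cells, and its neuron values were lower than those of every other stage in slow/slow cells. Snrpd1 was higher in slow/slow ESCs, with 96.4, 97.6 and 102 CPM in WT and 126, 143 and 142 CPM in slow/slow libraries, which is a log2 change of 0.48 ± 0.14 (FDR = 0.00835). The call of Snrpd1, at 0.34 ± 0.14 (FDR = 0.0418), in NPCs was lost without WT replicate 1 or 2 or slow/slow replicate 2 or 3 (FDR 0.0723 to 0.154). Snrpf was higher in slow/slow PSA-NCAM+ cells by 0.54 ± 0.20 (FDR = 0.0261), a call that was lost without WT replicate 1 or slow/slow replicate 3 (FDR 0.14 to 0.222) and was 0.59 (FDR = 0.00164) without replicate 1 of both genotypes. Snrpe had the largest change of the ring in neurons, 0.32 ± 0.16 (FDR = 0.0932), which did not pass. Over the 4 stages the log2 changes of Snrpd2, Snrpd3, Snrpe and Snrpg, none of them called, ran from -0.17 to 0.33.

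The U1 proteins were represented by Snrnp70 and Snrpa, which bind the U1 snRNA itself, and by Snrpc, which stabilises its pairing with the 5′ splice site. In WT cells, Snrnp70 read 303, 308 and 337 CPM in ESCs, 284, 259.6 and 255 in NPCs, 236, 249 and 229.9 at the PSA-NCAM+ stage and 166, 171 and 173 in neurons. Snrnp70 in slow/slow cells read 342, 379 and 353 CPM in ESCs, 313, 299.5 and 310.2 in NPCs, 271, 309 and 291 at the PSA-NCAM+ stage and 214, 225 and 232 in neurons. For Snrnp70, all 3 slow/slow libraries lay above all 3 WT libraries in ESCs, NPCs, PSA-NCAM+ cells and neurons. Snrnp70 had log2 changes of 0.18 ± 0.07 (FDR = 0.0317) in ESCs, 0.21 ± 0.07 (FDR = 0.0104) in NPCs, 0.29 ± 0.07 (FDR = 0.00097) at the PSA-NCAM+ stage and 0.40 ± 0.07 (FDR = 4.26e-05) in neurons. Snrnp70 (chr7:45376453-45395742, minus strand, GRCm38) was thus among the 3 members called at every stage, with the largest difference in neurons, although the changes stayed under 1.5-fold. Its call in ESCs was lost without WT replicate 1 or 2 or slow/slow replicate 2 (FDR 0.0708 to 0.101). Snrpa was called in NPCs, at 0.21 ± 0.09 (FDR = 0.0445), and was lost without WT replicate 1 or 3 or slow/slow replicate 1 or 3 (FDR 0.0824 to 0.103). In PSA-NCAM+ cells Snrpa was called without replicate 1 of both genotypes, at 0.27 (FDR = 0.0111). Snrpc, on chromosome 17, where the median log2 change of all genes in NPCs was -0.12, had a log2 change of -0.24 ± 0.11 (FDR = 0.0621) in NPCs and was called at no stage. In PSA-NCAM+ cells the median over chromosome 7, which holds Snrnp70, Snrpa, Snrpa1, Snrpd2, U2af2 and Prpf31, was -0.12, of the opposite sign to the change of Snrnp70.

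Of the U2-specific proteins, Snrpa1, the A′ protein, was higher in slow/slow cells at all 4 stages, and its partner Snrpb2, the B″ protein, was called at none. In WT cells, Snrpa1 read 117, 118 and 136 CPM in ESCs, 93.2, 101 and 107 in NPCs, 65.2, 79.4 and 70.5 at the PSA-NCAM+ stage and 52.1, 55.8 and 53.7 in neurons. Snrpa1 in slow/slow cells read 159.7, 175 and 172 CPM in ESCs, 130.1, 136 and 133 in NPCs, 88.5, 133 and 134 at the PSA-NCAM+ stage and 64.5, 65.0 and 68.5 in neurons. For Snrpa1, all 3 slow/slow libraries lay above all 3 WT libraries in ESCs, NPCs, PSA-NCAM+ cells and neurons. Snrpa1 had log2 changes of 0.45 ± 0.11 (FDR = 0.00367) in ESCs, 0.40 ± 0.11 (FDR = 0.00517) in NPCs, 0.72 ± 0.11 (FDR = 2.3e-05) at the PSA-NCAM+ stage and 0.29 ± 0.11 (FDR = 0.0374) in neurons. The largest difference of Snrpa1 was in PSA-NCAM+ cells, 1.65-fold. Its call in neurons was lost without WT replicate 1 or 3 or slow/slow replicate 1, 2 or 3 (FDR 0.0582 to 0.107). Snrpa1 lies at chr7:66059003-66074587, plus strand (GRCm38), where it overlaps Gm45213 on the same strand. The log2 changes of Snrpb2 ran from 0.01 to 0.21 over the 4 stages.

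SF3a, whose 3 subunits join the U2 snRNP to SF3b, was called higher as a whole in NPCs and in PSA-NCAM+ cells, 3 of 3 subunits in each, and 0 of 3 were called in ESCs or neurons. In WT cells, Sf3a2 read 162, 171 and 195 CPM in ESCs, 92.5, 107 and 92.1 in NPCs, 91.5, 84.8 and 80.4 at the PSA-NCAM+ stage and 83.3, 88.1 and 91.8 in neurons. Sf3a2 in slow/slow cells read 189.6, 193 and 180.0 CPM in ESCs, 142, 137 and 144 in NPCs, 95.0, 127 and 136 at the PSA-NCAM+ stage and 93.2, 106 and 101 in neurons. For Sf3a2, all 3 slow/slow libraries lay above all 3 WT libraries in NPCs, PSA-NCAM+ cells and neurons, and the genotypes overlapped in ESCs. Sf3a2 had log2 changes of 0.09 ± 0.10 (FDR = 0.516) in ESCs, 0.54 ± 0.10 (FDR = 0.000192) in NPCs, 0.48 ± 0.10 (FDR = 0.00055) at the PSA-NCAM+ stage and 0.19 ± 0.10 (FDR = 0.134) in neurons. In ESCs and neurons the change of Sf3a2 did not pass, but upper-quartile scaling called it in neurons at 0.33 (FDR = 0.00696). Sf3a1 had the largest change of the 3 in PSA-NCAM+ cells, 0.54 ± 0.16 (FDR = 0.00635), with 148, 208 and 208 CPM in WT and 175, 326 and 318 CPM in slow/slow cells. Sf3a3 had the largest in ESCs, 0.23 ± 0.12 (FDR = 0.135), which did not pass, and 0.36 ± 0.12 (FDR = 0.0157) in PSA-NCAM+ cells. The latter call in PSA-NCAM+ cells was lost without WT replicate 1 or slow/slow replicate 2 or 3 (FDR 0.0594 to 0.101), and the log2 change without replicate 1 of both genotypes was 0.43 (FDR = 1.15e-06).

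SF3b clamps the branch point helix, and its largest subunit Sf3b1 is a frequent target of mutation in blood cancers. Of its 5 members 1 was higher in ESCs, 4 in NPCs and 3 in PSA-NCAM+ cells, and 1 was lower in neurons. In WT cells, Sf3b1 read 529, 512 and 446 CPM in ESCs, 434, 432 and 444 in NPCs, 452, 475 and 434 at the PSA-NCAM+ stage and 445, 443 and 435 in neurons. Sf3b1 in slow/slow cells read 619, 578 and 630.0 CPM in ESCs, 509.8, 578 and 514 in NPCs, 442, 586 and 499.5 at the PSA-NCAM+ stage and 396, 372 and 357 in neurons. For Sf3b1, all 3 slow/slow libraries lay above all 3 WT libraries in ESCs and NPCs, all 3 lay below them in neurons, and the genotypes overlapped in PSA-NCAM+ cells. Sf3b1 had log2 changes of 0.30 ± 0.09 (FDR = 0.00943) in ESCs, 0.29 ± 0.09 (FDR = 0.0075) in NPCs, 0.17 ± 0.09 (FDR = 0.108) at the PSA-NCAM+ stage and -0.23 ± 0.09 (FDR = 0.0294) in neurons. Sf3b1 was thus higher in slow/slow ESCs and NPCs and lower in slow/slow neurons. In PSA-NCAM+ cells it was called without replicate 1 of both genotypes, at 0.26 (FDR = 0.0103). The call in neurons was lost without WT replicate 1 or 2 or slow/slow replicate 2 or 3 (FDR 0.0571 to 0.0933). With upper-quartile scaling the log2 change of Sf3b1 in neurons was -0.09 (FDR = 0.413).

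Sf3b3, a scaffold subunit of SF3b, had the largest NPC change of the complex. In WT cells, Sf3b3 read 606, 612 and 629 CPM in ESCs, 481, 488 and 463 in NPCs, 341, 519 and 518 at the PSA-NCAM+ stage and 298, 320.5 and 312 in neurons. Sf3b3 in slow/slow cells read 727, 749 and 731 CPM in ESCs, 829.9, 841 and 862 in NPCs, 414, 808 and 759.6 at the PSA-NCAM+ stage and 405, 388 and 384 in neurons. For Sf3b3, all 3 slow/slow libraries lay above all 3 WT libraries in ESCs, NPCs and neurons, and the genotypes overlapped in PSA-NCAM+ cells. Sf3b3 had log2 changes of 0.26 ± 0.17 (FDR = 0.236) in ESCs, 0.82 ± 0.17 (FDR = 0.000359) in NPCs, 0.52 ± 0.17 (FDR = 0.0119) at the PSA-NCAM+ stage and 0.34 ± 0.17 (FDR = 0.0945) in neurons. It lies on chromosome 8, where the median log2 change of all genes was 0.49 in NPCs and 0.46 in PSA-NCAM+ cells, and the part of the chromosome in its change was not tested. The call of Sf3b3 in PSA-NCAM+ cells was lost without WT replicate 1 or slow/slow replicate 2 (FDR 0.0731 to 0.0801), and the log2 change without replicate 1 of both genotypes was 0.60 (FDR = 4.4e-09). Sf3b4, whose product contacts the pre-mRNA near the branch point, was higher in NPCs by 0.75 ± 0.15 (FDR = 0.000254), from 7.16, 7.74 and 8.34 CPM in WT to 12.6, 12.6 and 13.8 CPM in slow/slow cells, which did not overlap. Sf3b2 had log2 changes from -0.01 to 0.32 and was called higher in NPCs and PSA-NCAM+ cells. Sf3b5 was called at no stage, with log2 changes between -0.15 and 0.26.

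The U2AF heterodimer recognises the end of the intron, U2af2 at the polypyrimidine tract and U2af1 at the AG. In WT cells, U2af2 read 445, 470.0 and 532 CPM in ESCs, 302, 302 and 297 in NPCs, 259.5, 366 and 336 at the PSA-NCAM+ stage and 323, 344 and 346 in neurons. U2af2 in slow/slow cells read 499.7, 566 and 507 CPM in ESCs, 474, 465 and 484 in NPCs, 295, 501 and 521 at the PSA-NCAM+ stage and 349.6, 369 and 366 in neurons. For U2af2, all 3 slow/slow libraries lay above all 3 WT libraries in NPCs and neurons, and the genotypes overlapped in ESCs and PSA-NCAM+ cells. U2af2 had log2 changes of 0.12 ± 0.15 (FDR = 0.549) in ESCs, 0.66 ± 0.15 (FDR = 0.000854) in NPCs, 0.45 ± 0.15 (FDR = 0.0129) at the PSA-NCAM+ stage and 0.10 ± 0.15 (FDR = 0.601) in neurons. U2af2 was higher in slow/slow NPCs and PSA-NCAM+ cells, and its ESC change did not pass. Its call in PSA-NCAM+ cells was lost without WT replicate 1 or slow/slow replicate 2 or 3 (FDR 0.0549 to 0.0817), and the log2 change without replicate 1 of both genotypes was 0.54 (FDR = 9.41e-07). In WT cells, U2af1 read 276, 286 and 315 CPM in ESCs, 176, 169.8 and 176 in NPCs, 143, 161 and 137 at the PSA-NCAM+ stage and 103, 110.4 and 109.8 in neurons. U2af1 in slow/slow cells read 284, 343 and 302 CPM in ESCs, 199.6, 187 and 203 in NPCs, 139, 180.5 and 184 at the PSA-NCAM+ stage and 118, 124 and 127 in neurons. For U2af1, all 3 slow/slow libraries lay above all 3 WT libraries in NPCs and neurons, and the genotypes overlapped in ESCs and PSA-NCAM+ cells. In the fit of all libraries total U2af1 counts were called at no stage, with log2 changes of 0.08 ± 0.09 (FDR = 0.497) in ESCs, 0.18 ± 0.09 (FDR = 0.114) in NPCs, 0.19 ± 0.09 (FDR = 0.0852) at the PSA-NCAM+ stage and 0.19 ± 0.09 (FDR = 0.0883) in neurons, but in neurons upper-quartile scaling called U2af1 higher at 0.34 (FDR = 0.00352), and so did DESeq2, its size factors in edgeR and a fit of only the samples compared. U2af1 was also called in PSA-NCAM+ cells without replicate 1 of both genotypes, at 0.29 (FDR = 0.00368).

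**Figure D3:**
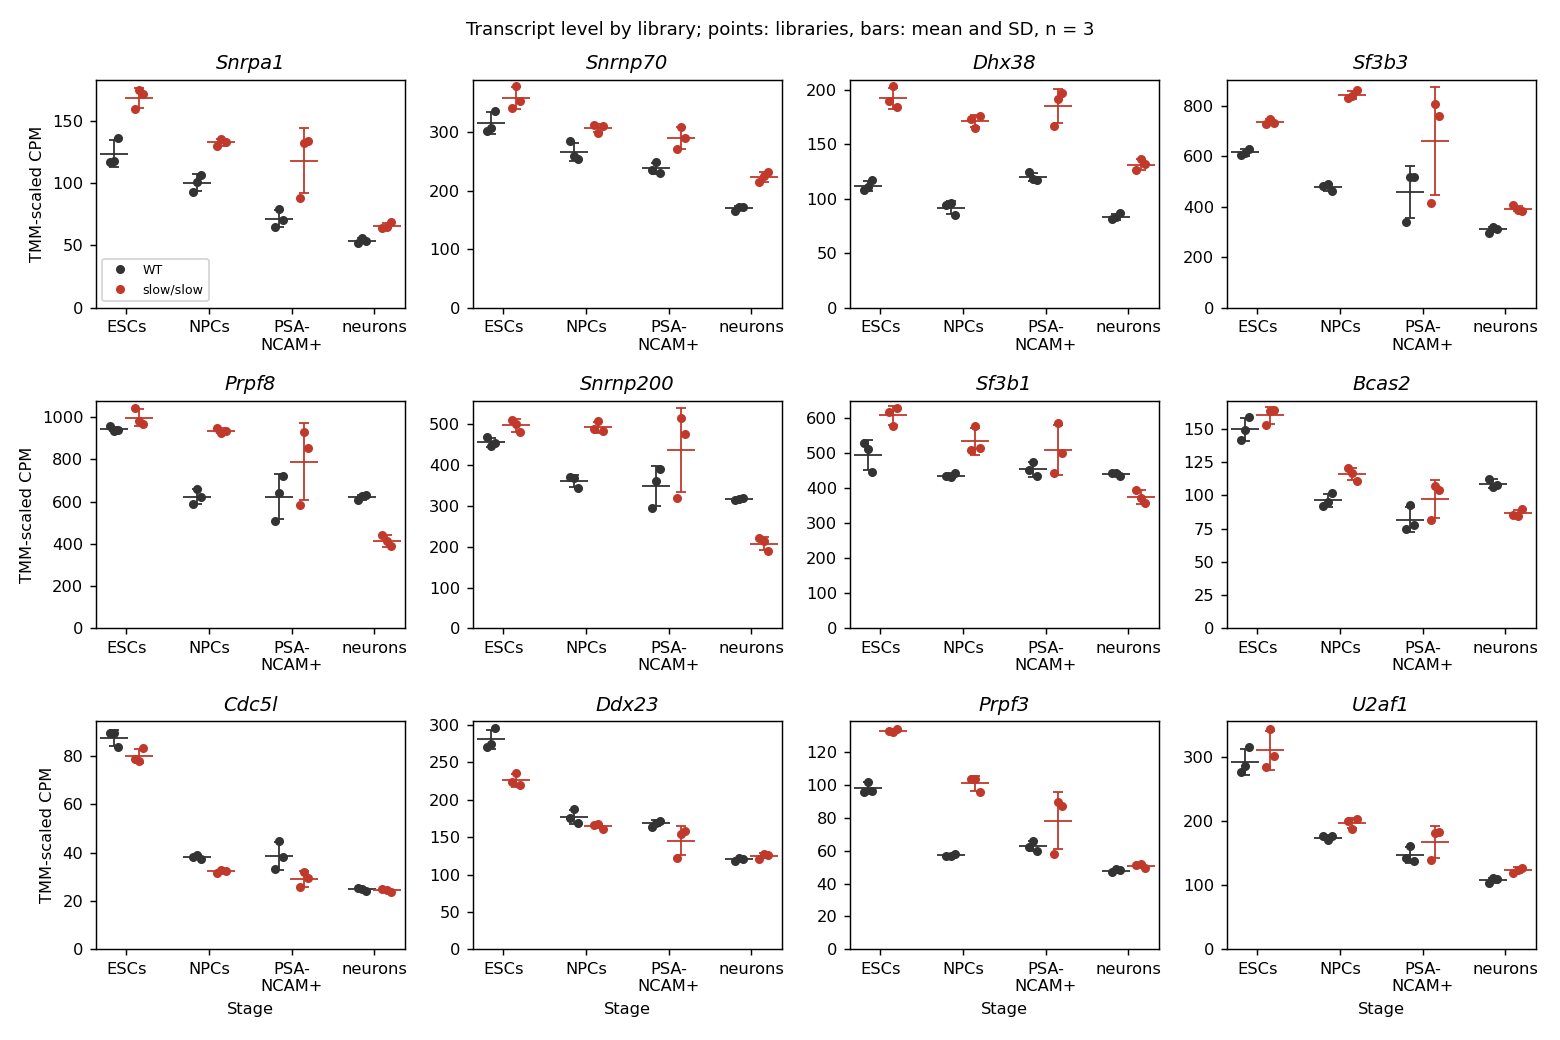
TMM-scaled CPM of 12 members in every library, 1 panel per gene and 1 point per library, by stage and genotype. Dhx38 and Snrpa1 are higher in slow/slow cells at every stage, Prpf8, Snrnp200, Sf3b1 and Bcas2 are higher in slow/slow NPCs and lower in slow/slow neurons, and U2af1 and Cdc5l decline from ESCs to neurons in both genotypes.

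The U5 proteins sit at the heart of the tri-snRNP: Prpf8 holds the catalytic RNA, the helicase Snrnp200 unwinds U4 from U6, and the GTPase Eftud2 helps to control it. Of 6 genes 3 were higher in NPCs and 3 in PSA-NCAM+ cells, 1 was lower in ESCs and in PSA-NCAM+ cells, and 2 were lower in neurons. In WT cells, Prpf8 read 956, 936 and 941 CPM in ESCs, 588, 658 and 619.8 in NPCs, 508, 641 and 719 at the PSA-NCAM+ stage and 607, 625 and 630.3 in neurons. Prpf8 in slow/slow cells read 1045, 980.0 and 968 CPM in ESCs, 948, 924 and 932 in NPCs, 582, 931 and 854 at the PSA-NCAM+ stage and 442, 413 and 388 in neurons. For Prpf8, all 3 slow/slow libraries lay above all 3 WT libraries in ESCs and NPCs, all 3 lay below them in neurons, and the genotypes overlapped in PSA-NCAM+ cells. Prpf8 had log2 changes of 0.08 ± 0.13 (FDR = 0.656) in ESCs, 0.59 ± 0.13 (FDR = 0.000613) in NPCs, 0.34 ± 0.13 (FDR = 0.0273) at the PSA-NCAM+ stage and -0.58 ± 0.13 (FDR = 0.000701) in neurons. Prpf8 (chr11:75486816-75509449, plus strand, GRCm38) was higher in slow/slow NPCs and lower in slow/slow neurons, at 1.50-fold and 0.667-fold of the WT level.

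The call of Prpf8 in PSA-NCAM+ cells was lost without WT replicate 1 or slow/slow replicate 2 or 3 (FDR 0.0685 to 0.162), and the log2 change without replicate 1 of both genotypes was 0.39 (FDR = 5.02e-05). In WT cells, Snrnp200 read 468, 445 and 454 CPM in ESCs, 369.9, 368 and 344 in NPCs, 294, 360.0 and 389.6 at the PSA-NCAM+ stage and 314, 318 and 319 in neurons. Snrnp200 in slow/slow cells read 509.9, 500.5 and 479 CPM in ESCs, 487, 508 and 483 in NPCs, 319, 514 and 476 at the PSA-NCAM+ stage and 221, 213 and 189 in neurons. For Snrnp200, all 3 slow/slow libraries lay above all 3 WT libraries in ESCs and NPCs, all 3 lay below them in neurons, and the genotypes overlapped in PSA-NCAM+ cells. Snrnp200 (chr2:127208386-127240451, plus strand, GRCm38) followed Prpf8 in sign, with log2 changes of 0.12 ± 0.12 (FDR = 0.446) in ESCs, 0.45 ± 0.12 (FDR = 0.00391) in NPCs, 0.33 ± 0.12 (FDR = 0.028) at the PSA-NCAM+ stage and -0.61 ± 0.12 (FDR = 0.000335) in neurons. Its PSA-NCAM+ call was lost without WT replicate 1 or slow/slow replicate 2 or 3 (FDR 0.0742 to 0.152), and without replicate 1 of both genotypes the log2 change there was 0.40 (FDR = 2.1e-05). In neurons the lower values of Prpf8 and Snrnp200 remained called with upper-quartile scaling, at -0.44 (FDR = 0.00701) and -0.47 (FDR = 0.0034). Neuron markers were lower and proliferation markers higher in slow/slow than in WT neurons, and their part in these changes was not tested. The median over chromosome 2, which holds Snrnp200, was -0.11 in neurons.

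Ddx23, the helicase that prepares U1 for release from the 5′ splice site, was one of the 2 members called only lower. In WT cells, Ddx23 read 271, 275 and 296 CPM in ESCs, 176, 187 and 169 in NPCs, 164, 169 and 172 at the PSA-NCAM+ stage and 118, 123 and 120.1 in neurons. Ddx23 in slow/slow cells read 223, 236 and 219 CPM in ESCs, 166, 167 and 161 in NPCs, 123, 154 and 158 at the PSA-NCAM+ stage and 121, 128 and 126 in neurons. For Ddx23, all 3 slow/slow libraries lay below all 3 WT libraries in ESCs, NPCs and PSA-NCAM+ cells, and the genotypes overlapped in neurons. Ddx23 had log2 changes of -0.31 ± 0.07 (FDR = 0.0022) in ESCs, -0.11 ± 0.07 (FDR = 0.235) in NPCs, -0.21 ± 0.07 (FDR = 0.0199) at the PSA-NCAM+ stage and 0.06 ± 0.07 (FDR = 0.557) in neurons. Chromosome 15, which holds Ddx23, had a median log2 change of -0.60 in ESCs, -0.57 in NPCs and -0.56 in PSA-NCAM+ cells, each further from 0 than the change of Ddx23, and -0.08 in neurons, and the part of the chromosome was not tested. Its call in PSA-NCAM+ cells was lost without WT replicate 2 or 3 or slow/slow replicate 1 (FDR 0.064 to 0.214), and the log2 change without replicate 1 of both genotypes was -0.12 (FDR = 0.0871). Eftud2 had the largest U5 change in PSA-NCAM+ cells, 0.43 ± 0.17 (FDR = 0.0402), with 153, 234 and 231 CPM in WT and 172, 333 and 324 CPM in slow/slow cells. The call of Eftud2 in PSA-NCAM+ cells was lost without WT replicate 1 or slow/slow replicate 2 or 3 (FDR 0.141 to 0.22), and the log2 change without replicate 1 of both genotypes was 0.50 (FDR = 1.44e-06). The remaining U5 proteins Snrnp40, a WD-repeat protein, and Prpf6, which bridges U5 to U4/U6, had log2 changes from -0.14 to 0.57 over the 4 stages, and Snrnp40 was called in NPCs at 0.57 ± 0.16 (FDR = 0.00491).

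The U4/U6 proteins Prpf3, Prpf4 and Prpf31 hold the base-paired U4 and U6 snRNAs, and all 3 were higher in slow/slow NPCs, with 1 higher in ESCs and 2 in PSA-NCAM+ cells. In WT cells, Prpf3 read 96.0, 102 and 96.1 CPM in ESCs, 57.0, 56.7 and 58.1 in NPCs, 62.2, 65.9 and 59.9 at the PSA-NCAM+ stage and 46.8, 48.8 and 48.2 in neurons. Prpf3 in slow/slow cells read 133, 132 and 134 CPM in ESCs, 103, 104 and 95.8 in NPCs, 58.1, 89.9 and 87.2 at the PSA-NCAM+ stage and 51.3, 51.7 and 49.2 in neurons. For Prpf3, all 3 slow/slow libraries lay above all 3 WT libraries in ESCs, NPCs and neurons, and the genotypes overlapped in PSA-NCAM+ cells. Prpf3 had log2 changes of 0.44 ± 0.10 (FDR = 0.00189) in ESCs, 0.82 ± 0.10 (FDR = 2.02e-06) in NPCs, 0.32 ± 0.10 (FDR = 0.0115) at the PSA-NCAM+ stage and 0.08 ± 0.10 (FDR = 0.525) in neurons. Prpf3 was called at 3 stages and had its largest difference, 1.76-fold, in NPCs. Its call in PSA-NCAM+ cells was lost without slow/slow replicate 2 (FDR = 0.056), and the log2 change without replicate 1 of both genotypes was 0.49 (FDR = 1.86e-07). Prpf4 was higher in PSA-NCAM+ cells by 0.35 ± 0.11 (FDR = 0.0119) and was lost there without slow/slow replicate 2 (FDR = 0.0654), and at 0.51 (FDR = 1.91e-07) without replicate 1 of both genotypes it was called. Prpf31 was higher in NPCs by 0.41 ± 0.15 (FDR = 0.022) and in neurons showed 0.17 ± 0.15 (FDR = 0.341). The call of Prpf31 in NPCs was lost without WT replicate 3 or slow/slow replicate 3 (FDR 0.0527 to 0.0533).

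Sart1, Usp39 and Prpf38a are needed for the tri-snRNP to join or to become active, and of these Sart1 was called, in ESCs and NPCs. In WT cells, Sart1 read 123, 129 and 139 CPM in ESCs, 77.7, 80.9 and 74.8 in NPCs, 81.5, 95.2 and 95.3 at the PSA-NCAM+ stage and 83.5, 81.8 and 83.5 in neurons. Sart1 in slow/slow cells read 168, 167 and 161 CPM in ESCs, 104, 98.0 and 104 in NPCs, 84.6, 90.0 and 97.2 at the PSA-NCAM+ stage and 84.6, 91.6 and 94.0 in neurons. For Sart1, all 3 slow/slow libraries lay above all 3 WT libraries in ESCs, NPCs and neurons, and the genotypes overlapped in PSA-NCAM+ cells. Sart1 had log2 changes of 0.34 ± 0.07 (FDR = 0.000546) in ESCs, 0.39 ± 0.07 (FDR = 0.000108) in NPCs, -0.001 ± 0.07 (FDR = 0.992) at the PSA-NCAM+ stage and 0.12 ± 0.07 (FDR = 0.164) in neurons. Sart1 was called in ESCs and NPCs, and with upper-quartile scaling also in neurons at 0.26 (FDR = 0.00433). In WT cells, Usp39 read 112, 115 and 127 CPM in ESCs, 94.5, 94.2 and 91.3 in NPCs, 85.2, 82.7 and 83.4 at the PSA-NCAM+ stage and 63.8, 65.7 and 66.0 in neurons. Usp39 in slow/slow cells read 118, 126 and 122 CPM in ESCs, 97.3, 100.4 and 96.8 in NPCs, 61.6, 86.6 and 90.9 at the PSA-NCAM+ stage and 69.0, 73.4 and 73.6 in neurons. For Usp39, all 3 slow/slow libraries lay above all 3 WT libraries in NPCs and neurons, and the genotypes overlapped in ESCs and PSA-NCAM+ cells. Usp39 had log2 changes of -0.07 ± 0.09 (FDR = 0.54) at the PSA-NCAM+ stage and 0.14 ± 0.09 (FDR = 0.21) in neurons, and the former changed sign when slow/slow replicate 1 was left out, while upper-quartile scaling called the latter at 0.29 (FDR = 0.0114). Prpf38a, which activates the assembled spliceosome, had log2 changes from -0.11 to 0.17.

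The Prp19 complex stabilises the activated spliceosome, and Prpf19, its ubiquitin ligase, Cdc5l, Plrg1 and Bcas2 stood for it. In WT cells, Cdc5l read 89.5, 89.4 and 83.6 CPM in ESCs, 38.1, 39.0 and 37.3 in NPCs, 33.1, 44.7 and 38.1 at the PSA-NCAM+ stage and 25.4, 24.8 and 24.2 in neurons. Cdc5l in slow/slow cells read 78.6, 77.7 and 83.1 CPM in ESCs, 31.5, 32.9 and 32.4 in NPCs, 25.7, 32.0 and 29.7 at the PSA-NCAM+ stage and 24.8, 24.4 and 23.7 in neurons. For Cdc5l, all 3 slow/slow libraries lay below all 3 WT libraries in ESCs, NPCs and PSA-NCAM+ cells, and the genotypes overlapped in neurons. Cdc5l had log2 changes of -0.13 ± 0.09 (FDR = 0.239) in ESCs, -0.24 ± 0.09 (FDR = 0.0245) in NPCs, -0.40 ± 0.09 (FDR = 0.000608) at the PSA-NCAM+ stage and -0.03 ± 0.09 (FDR = 0.819) in neurons. Cdc5l was lower in slow/slow NPCs and PSA-NCAM+ cells, and it is the member with the most near-identical copies. Its call in NPCs was lost without WT replicate 1 or 2 or slow/slow replicate 1 or 3 (FDR 0.0613 to 0.0831). Its chromosome 17 had a median of -0.12 in NPCs and -0.12 in PSA-NCAM+ cells. In WT cells, Prpf19 read 361, 374 and 419 CPM in ESCs, 226, 216 and 208 in NPCs, 177, 261 and 264 at the PSA-NCAM+ stage and 378, 393 and 389 in neurons. Prpf19 in slow/slow cells read 391, 456 and 415 CPM in ESCs, 319.7, 296 and 317 in NPCs, 183, 334 and 368 at the PSA-NCAM+ stage and 292, 304 and 307 in neurons. For Prpf19, all 3 slow/slow libraries lay above all 3 WT libraries in NPCs, all 3 lay below them in neurons, and the genotypes overlapped in ESCs and PSA-NCAM+ cells. Prpf19 had log2 changes of 0.13 ± 0.17 (FDR = 0.585) in ESCs, 0.52 ± 0.17 (FDR = 0.0143) in NPCs, 0.33 ± 0.17 (FDR = 0.104) at the PSA-NCAM+ stage and -0.36 ± 0.17 (FDR = 0.0829) in neurons. Prpf19 was called higher in NPCs.

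Bcas2 was higher in slow/slow NPCs and PSA-NCAM+ cells and lower in slow/slow neurons. In WT cells, Bcas2 read 141, 149 and 159 CPM in ESCs, 92.3, 94.9 and 102 in NPCs, 74.8, 93.0 and 77.8 at the PSA-NCAM+ stage and 113, 106 and 108 in neurons. Bcas2 in slow/slow cells read 153, 164 and 164 CPM in ESCs, 120.5, 117 and 111 in NPCs, 81.3, 107 and 104 at the PSA-NCAM+ stage and 85.0, 84.8 and 89.8 in neurons. For Bcas2, all 3 slow/slow libraries lay above all 3 WT libraries in NPCs, all 3 lay below them in neurons, and the genotypes overlapped in ESCs and PSA-NCAM+ cells. Bcas2 had log2 changes of 0.10 ± 0.09 (FDR = 0.418) in ESCs, 0.27 ± 0.09 (FDR = 0.0159) in NPCs, 0.25 ± 0.09 (FDR = 0.023) at the PSA-NCAM+ stage and -0.33 ± 0.09 (FDR = 0.00463) in neurons. The call of Bcas2 in PSA-NCAM+ cells was lost without WT replicate 1 or slow/slow replicate 2 or 3 (FDR 0.0514 to 0.105), and the log2 change without replicate 1 of both genotypes was 0.31 (FDR = 0.00105). Plrg1 had log2 changes from -0.12 to 0.24 over the 4 stages. With upper-quartile scaling the neuron change of Bcas2 was -0.19 (FDR = 0.088).

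The DEAH helicases act late, Dhx38 (Prp16) before the second step and Dhx15 in disassembly, and Dhx38 showed the largest change of any member in ESCs and NPCs. In WT cells, Dhx38 read 107, 111 and 117 CPM in ESCs, 94.1, 96.0 and 84.8 in NPCs, 124, 118 and 117 at the PSA-NCAM+ stage and 81.3, 82.6 and 86.5 in neurons. Dhx38 in slow/slow cells read 189.5, 203 and 184 CPM in ESCs, 173, 165 and 176 in NPCs, 167, 191 and 197 at the PSA-NCAM+ stage and 126, 136 and 132 in neurons. For Dhx38, all 3 slow/slow libraries lay above all 3 WT libraries in ESCs, NPCs, PSA-NCAM+ cells and neurons. Dhx38 had log2 changes of 0.78 ± 0.07 (FDR = 2.75e-08) in ESCs, 0.90 ± 0.07 (FDR = 2.61e-09) in NPCs, 0.63 ± 0.07 (FDR = 2.38e-07) at the PSA-NCAM+ stage and 0.65 ± 0.07 (FDR = 1.59e-07) in neurons. Dhx38 (chr8:109548011-109565861, minus strand, GRCm38) was 1.72-fold higher in slow/slow ESCs and 1.87-fold higher in NPCs, and its call survived the removal of any 1 library at all 4 stages. It lies on chromosome 8, whose medians of 0.45, 0.49, 0.46 and 0.44 are of the same sign and smaller, and the part of the chromosome was not tested.

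In WT cells, Dhx15 read 322, 329 and 275 CPM in ESCs, 262, 251 and 254 in NPCs, 279, 319 and 264 at the PSA-NCAM+ stage and 229, 251 and 248 in neurons. Dhx15 in slow/slow cells read 413, 414 and 440.2 CPM in ESCs, 410.2, 418 and 408 in NPCs, 329, 518 and 439 at the PSA-NCAM+ stage and 285, 287 and 267 in neurons. For Dhx15, all 3 slow/slow libraries lay above all 3 WT libraries in ESCs, NPCs, PSA-NCAM+ cells and neurons. Dhx15 had log2 changes of 0.45 ± 0.11 (FDR = 0.00303) in ESCs, 0.69 ± 0.11 (FDR = 3.75e-05) in NPCs, 0.58 ± 0.11 (FDR = 0.000215) at the PSA-NCAM+ stage and 0.21 ± 0.11 (FDR = 0.132) in neurons. Dhx15 was higher in slow/slow cells at the first 3 stages and was not called in neurons, where its chromosome 5 had a median of -0.13.

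Whether the effect of the genotype differed between stages was tested as an interaction, for neurons against ESCs and for NPCs against ESCs. Between neurons and ESCs 5 members differed, 1 with a higher and 4 with a lower effect in neurons, where 42.1% of all tested genes differed in either direction. The 4 lower were Snrnp200, with a difference of log2 changes of -0.73 ± 0.17 (FDR = 0.00196), Prpf8 at -0.66 ± 0.18 (FDR = 0.00551), Sf3b1 at -0.53 ± 0.12 (FDR = 0.00164) and Bcas2 at -0.43 ± 0.13 (FDR = 0.0108), and the 1 higher was Ddx23 at 0.37 ± 0.11 (FDR = 0.00824). Prpf3 came next, at -0.36 ± 0.15 (FDR = 0.0551), and did not pass. On chromosome 15, which holds Ddx23, the median log2 change of all genes was -0.60 in ESCs and -0.08 in neurons. The part of the chromosome in the Ddx23 difference was not tested. The share of members that differed was thus below that of all genes. With upper-quartile scaling 3 members had a higher and 3 a lower effect in neurons: Snrnp70, Snrpa and Ddx23, and Sf3b1, Prpf8 and Snrnp200. Between NPCs and ESCs 3 members had a higher effect in NPCs, against 24.6% of all genes with a difference in either direction. They were Sf3b4 at 0.57 ± 0.21 (FDR = 0.0487), Prpf8 at 0.51 ± 0.18 (FDR = 0.0437) and Sf3a2 at 0.45 ± 0.15 (FDR = 0.0293), of which Prpf8 was lost without any 1 of the 12 ESC and NPC libraries (FDR 0.0516 to 0.0968), Sf3b4 without any 1 of 11 (FDR 0.0523 to 0.112) and Sf3a2 without any 1 of 5 (FDR 0.0563 to 0.0765). The next were Prpf3 at 0.38 ± 0.15 (FDR = 0.0645), U2af2 at 0.54 ± 0.21 (FDR = 0.0651) and Sf3b3 at 0.57 ± 0.24 (FDR = 0.0874), which did not pass. Interactions with PSA-NCAM+ cells were not tested.

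The second comparison followed each genotype from ESCs through differentiation, and the members declined. In WT cells 32 of 40 were lower in NPCs than in ESCs and 0 higher, while 31.6% of all genes were lower and 34.0% higher. In WT PSA-NCAM+ cells 33 were lower and 0 higher, against 33.6% and 37.6%, and in WT neurons 35 were lower and 0 higher, against 39.4% and 43.4%. In slow/slow cells 24 were lower in NPCs, where 28.4% of all genes were lower and 33.9% higher. Slow/slow PSA-NCAM+ cells had 30 lower, against 34.2% lower and 39.2% higher, and slow/slow neurons had all 40 lower, against 38.4% and 44.0%. At every stage and in both genotypes the share of members that fell exceeded the background, and 0 members rose by edgeR's FDR, by its unadjusted p under 0.05 or by DESeq2. Other fits gave 3 exceptions: Dhx38 was higher in WT PSA-NCAM+ cells with upper-quartile scaling (log2 change 0.14, FDR = 0.045), Sf3b3 in slow/slow NPCs when only the samples compared were fitted (0.20, FDR = 0.0039), and Dhx15 in slow/slow PSA-NCAM+ cells without replicate 1 of both genotypes (0.18, FDR = 0.0462). The median log2 change of the members was -0.41, -0.56 and -0.67 in WT NPCs, PSA-NCAM+ cells and neurons and -0.30, -0.46 and -0.78 in slow/slow cells, beside 0.03, 0.05, 0.08, 0.04, 0.07 and 0.12 over all genes. Proliferation markers fell over the same stages, from 6031 to 6388 CPM in WT ESCs to 1307 to 1656 CPM in WT neurons, and their part in the decline was not tested. The comparisons within a genotype share their ESC libraries.

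Cdc5l fell furthest at all stages, by log2 changes of -1.20 ± 0.09 (FDR = 4.33e-10), -1.18 ± 0.09 (FDR = 3.78e-10) and -1.82 ± 0.09 (FDR = 1.12e-13) in WT NPCs, PSA-NCAM+ cells and neurons. Its first place held in WT and in slow/slow cells. In slow/slow cells Cdc5l changed by -1.31 ± 0.09 (FDR = 1.01e-10), -1.45 ± 0.09 (FDR = 1.12e-11) and -1.71 ± 0.09 (FDR = 3.83e-13). U2af1 fell by 1.44 ± 0.09 (FDR = 1.14e-11) in WT neurons and 1.33 ± 0.09 (FDR = 4.6e-11) in slow/slow neurons on the log2 scale, and Snrpa1 by 1.20 ± 0.12 (FDR = 5.21e-09) and 1.36 ± 0.12 (FDR = 9.24e-10). Among the other members with the largest falls, Ddx23 changed by -1.22 ± 0.08 (FDR = 4.18e-12) in WT neurons and Prpf3 by -1.39 ± 0.11 (FDR = 1.3e-10) in slow/slow neurons. At the earlier stages SF3a and SF3b genes were among those with the largest falls in WT cells. The U4/U6 gene Prpf31 was among them in WT NPCs and in slow/slow NPCs and PSA-NCAM+ cells. In NPCs Sf3b4 changed by -1.02 ± 0.15 (FDR = 4.72e-06), Prpf31 by -0.93 ± 0.15 (FDR = 1.57e-05) and Sf3a2 by -0.86 ± 0.10 (FDR = 4.8e-07) in WT cells, and Prpf31 by -0.65 ± 0.15 (FDR = 0.000716), Sart1 by -0.70 ± 0.07 (FDR = 3.36e-08) and U2af1 by -0.66 ± 0.09 (FDR = 3.91e-06) in slow/slow cells. In PSA-NCAM+ cells Sf3a2 changed by -1.04 ± 0.10 (FDR = 2.8e-08), U2af1 by -0.99 ± 0.09 (FDR = 1.17e-08) and Sf3b4 by -0.94 ± 0.15 (FDR = 9.95e-06) in WT cells, and Prpf31 by -0.99 ± 0.15 (FDR = 5.18e-06), U2af1 by -0.89 ± 0.09 (FDR = 4.32e-08) and Sart1 by -0.87 ± 0.07 (FDR = 8.19e-10) in slow/slow cells. Falls of 2-fold or more that passed the FDR were seen for 2, 2 and 8 members in WT NPCs, PSA-NCAM+ cells and neurons and for 1, 1 and 13 in slow/slow cells. Of all genes 9.89%, 11.6% and 25.6% had such falls in WT cells and 9.16%, 13.4% and 22.5% in slow/slow cells, so that the share of members exceeded the background in slow/slow neurons and lay below it elsewhere.

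The last comparison concerned the splicing of the members' own transcripts, measured as percent spliced in (PSI), the share of junction reads that include an exon, intron or splice site. A total of 38 members had events in the table, and Snrpe and Sf3b5 had none. An event was called when the mean PSI differed by more than 10 points (dPSI) with a posterior probability over 0.95. Of member exons 0 of 41 were called in ESCs, where 0.809% of all exons were, 1 of 42 in NPCs against 2.93%, 1 of 43 in PSA-NCAM+ cells against 0.966% and 1 of 43 in neurons against 3.55%. Between neurons and ESCs 1 of 43 was called in WT cells, against 5.31%, and 2 of 41 in slow/slow cells, against 3.89%. A count of 1 or 2 is near these percentages, and nothing particular to the members is read from it. All of the calls were of the U2af1 exons or the Snrpa1 exon.

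The downstream U2af1 exon, at mm9 chr17:31788591, was included more often in slow/slow NPCs, at 31.9, 36.6 and 37.8% PSI, than in WT NPCs, at 12.9, 15.5 and 10.3%. The groups were far apart, with a dPSI of 22.5 points, and limma on logit PSI gave an FDR of 0.00503. In ESCs the exon stood at 34.7, 34.4 and 34.4% in slow/slow and 24.6, 27.7 and 27.2% in WT cells, a dPSI of 8.04 points that did not reach 10 although the groups did not overlap (limma FDR = 0.0332). In PSA-NCAM+ cells it stood at 25.8, 32.4 and 32.3% in slow/slow and 21.0, 22.1 and 17.2% in WT cells, a dPSI of 10.1 points that was called but that limma did not pass (FDR = 0.251, and 0.106 with the replicate block) and that was lost without slow/slow replicate 2 or 3 or WT replicate 3. In neurons the values were 20.3, 18.4 and 21.8% in slow/slow and 16.5, 20.2 and 20.3% in WT cells, which overlapped, with a dPSI of 1.22 points.

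The upstream U2af1 exon, at mm9 chr17:31789447, moved in the other direction in NPCs, at 66.9, 62.6 and 67.7% in slow/slow and 73.1, 71.2 and 75.0% in WT cells, a dPSI of -7.40 points that did not reach the threshold (limma FDR = 0.0619). In neurons it was the exon that differed, at 77.4, 78.0 and 72.0% in slow/slow and 66.6, 63.5 and 65.3% in WT cells, with a dPSI of 10.7 points (probability 0.994, limma FDR = 0.0076), which fell under 10 points without slow/slow replicate 1 or 2. Its ESC values were 62.8, 60.4 and 60.1% in slow/slow and 65.4, 64.3 and 67.5% in WT cells, and its PSA-NCAM+ values 70.1, 62.2 and 65.0% and 67.1, 68.6 and 68.4%, which overlapped. From ESCs to neurons in slow/slow cells the upstream exon gained 14.7 points and the downstream exon changed by -14.3 points, both called. In WT cells the same comparison gave -0.62 and -7.52 points, and neither was called. The 2 exons did not change by equal and opposite amounts between genotypes. The downstream and upstream dPSI were 22.5 and -7.40 points in NPCs and 1.22 and 10.7 points in neurons. Events of this pair rested on 218 to 1154 reads per library.

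The Snrpa1 exon, at mm9 chr7:73215005, was included almost always in ESCs, at 98.3, 97.8 and 97.4% in WT and 98.7, 98.5 and 99.2% in slow/slow cells, and less in WT neurons, at 82.7, 89.2 and 84.8%, than in slow/slow neurons, at 93.3, 94.5 and 93.7%. The difference in neurons was 8.29 points, under the threshold, with a limma FDR of 0.00959, and that between WT neurons and WT ESCs was -12.3 points and was called. NPC values were 97.2, 96.1 and 96.5% in WT and 98.2, 98.0 and 98.9% in slow/slow cells, and PSA-NCAM+ values 91.0, 95.7 and 94.8% and 93.2, 96.6 and 96.8%, with replicate 1 the lowest of each genotype.

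**Figure D4:**
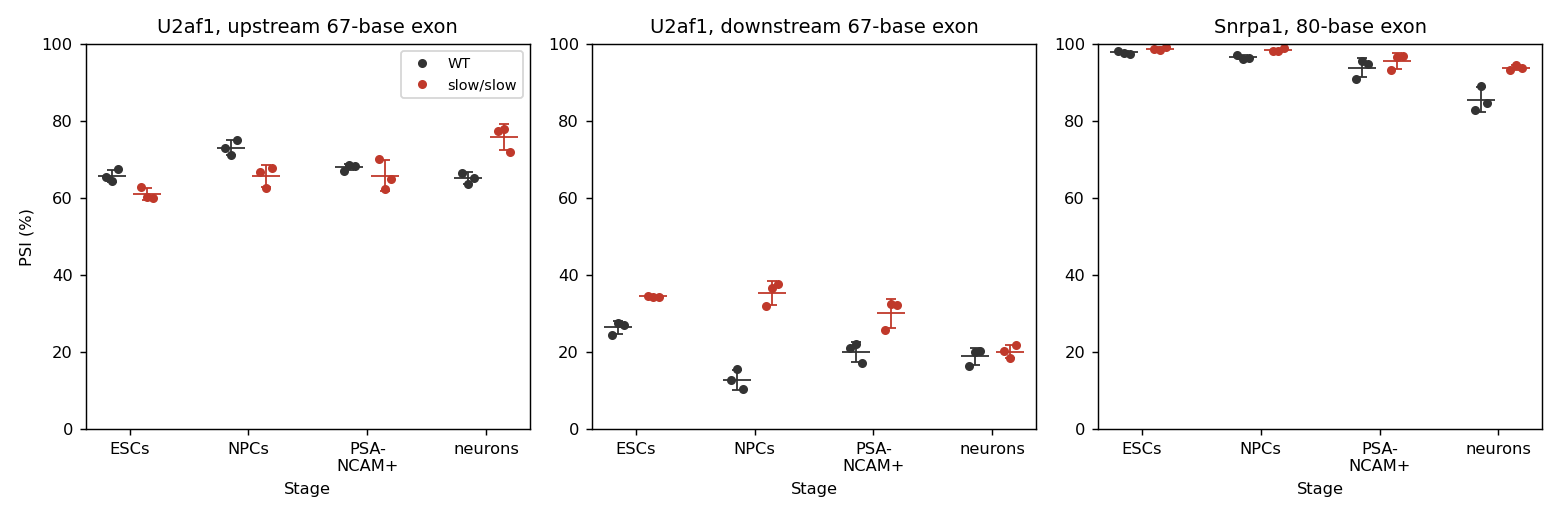
PSI in percent of the downstream and upstream U2af1 exons and of the Snrpa1 exon in every library, by stage and genotype, 1 point per library. The downstream U2af1 exon separates the genotypes most in NPCs (dPSI 22.5), the upstream exon in neurons (dPSI 10.7), and the Snrpa1 exon is lowest in WT neurons.

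Retained introns of the members were rare, with 0 of 405, 413, 407 and 405 tested called between genotypes in ESCs, NPCs, PSA-NCAM+ cells and neurons, where 0.0541%, 0.321%, 0.0838% and 0.260% of all introns were called. Between neurons and ESCs 0 of 404 were called in WT cells and 0 of 403 in slow/slow cells, against 1.00% and 0.639%. With 1 library left out, 1 member intron was called in NPCs (without slow/slow replicate 2 or 3 or WT replicate 3), 1 between neurons and ESCs in WT cells (without neuron replicate 1) and 1 in slow/slow cells (without ESC replicate 1). Of alternative splice sites 0 of 130, 131, 130 and 130 were called, against 0.113%, 0.878%, 0.206% and 0.460%. Limma on logit PSI also passed 0 member introns and 0 member splice sites with a dPSI over 10, whether by its FDR or by an unadjusted p under 0.05. At any dPSI, limma's FDR passed 0, 5, 0 and 18 member introns between genotypes at the 4 stages, all of them shifts below 10 points, against 0.0222%, 1.37%, 0% and 4.89% of all introns. Between neurons and ESCs it passed 60 of 404 member introns in WT cells and 23 of 403 in slow/slow cells, against 28.7% and 12.4%, so that the share of the members lay at or below the background in all 6 comparisons. Among the introns that passed between genotypes was a 1813-base intron of Sf3b1 at mm9 chr1:55071407-55073219, which was chosen after its values were seen. Its retention was 20.3, 21.0 and 18.3% in WT and 7.81, 11.6 and 10.9% in slow/slow NPCs, a difference of -9.75 points (limma FDR = 0.00869), and 12.8, 10.7 and 9.55% in WT and 17.4, 17.7 and 18.4% in slow/slow neurons, a difference of 6.80 points (limma FDR = 0.00139). Retention of this intron was thus lower in slow/slow NPCs and higher in slow/slow neurons, without overlap between the libraries of either stage, and Sf3b1 counts at those stages were higher and lower respectively. The median retention over 381 member introns was at most 0.47% in any library, and the highest values of each genotype were in replicate 1 of the PSA-NCAM+ cells.

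Promoters are printed for 3 members that moved together or against each other: Prpf8 and Snrnp200, with changes of both signs, and Snrnp70, higher at all 4 stages. RefSeq promoters on GRCm38.p6, from 250 bases before to 50 after the start, could be matched for 30 of the 40 members. Capitals mark matches on either strand to CCGGAAG (an ETS motif) in Snrnp200, to TGCGCA, a palindrome at the core of the NRF1 motif, in Snrnp70 and Prpf8, and to CCAAT in Prpf8.
Snrnp200 promoter, chr2:127208136-127208435, plus strand: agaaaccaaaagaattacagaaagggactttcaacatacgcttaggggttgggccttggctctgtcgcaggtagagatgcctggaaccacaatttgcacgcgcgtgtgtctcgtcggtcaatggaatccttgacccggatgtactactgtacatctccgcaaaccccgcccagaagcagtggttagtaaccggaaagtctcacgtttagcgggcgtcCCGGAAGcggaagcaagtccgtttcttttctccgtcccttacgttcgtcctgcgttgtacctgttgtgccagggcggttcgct
Snrnp70 promoter, chr7:45395693-45395992, minus strand: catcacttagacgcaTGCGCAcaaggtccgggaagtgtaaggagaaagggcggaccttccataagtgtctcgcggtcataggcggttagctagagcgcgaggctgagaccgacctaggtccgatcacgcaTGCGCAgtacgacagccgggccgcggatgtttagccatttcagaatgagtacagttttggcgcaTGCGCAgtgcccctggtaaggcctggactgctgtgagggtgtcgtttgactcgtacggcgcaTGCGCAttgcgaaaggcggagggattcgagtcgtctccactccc
Prpf8 promoter, chr11:75486527-75486826, plus strand: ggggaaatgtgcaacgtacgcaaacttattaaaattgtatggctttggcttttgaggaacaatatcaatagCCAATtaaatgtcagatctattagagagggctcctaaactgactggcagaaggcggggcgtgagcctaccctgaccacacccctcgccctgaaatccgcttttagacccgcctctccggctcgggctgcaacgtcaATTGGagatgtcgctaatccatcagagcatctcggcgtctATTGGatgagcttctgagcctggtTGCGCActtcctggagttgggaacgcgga

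Each of the 30 members was counted once if any of its promoters held a match, while the background counted each of 32851 promoters singly. The shares are therefore unlike in unit. CCGGAAG was found in 14 of the 30 members and in 8.86% of the promoters. CCAAT was found in 13 of 30, against 37.4%, and TATAAA in 2 of 30, Sf3b3 and Snrpa, against 13.6%. TGCGCA was found in 11 of 30, against 7.76%, and was taken after a longer form of that motif had been counted and found in fewer member promoters. AAGATGGC (YY1) was found in 1, Sf3a1, against 2.75%, and CACGTG (the E-box) in 3, Bcas2, Prpf3 and Snrpa, against 7.15%. GC content had a median of 58.7% in the member promoters and 52.7% in all. A match describes letters in the window and says nothing of binding. Gene span, at a median of 17.7 kb for the members and 23.2 kb for all genes, showed hardly any relation to the change in slow/slow cells, with Pearson's r over the 40 members, which are not independent replicates, of 0.01, 0.05, -0.07 and -0.05 in ESCs, NPCs, PSA-NCAM+ cells and neurons. Over 16312 genes r was -0.05, 0.04, 0.12 and -0.12. Member spans ran only from 3.82 to 63.8 kb, so these values say nothing of longer genes.

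Other genes of the pathway, taken from lists, were counted in the same fit and against the same background. Of the 6 Lsm genes tested, whose ring binds U6, 3 were higher and 0 lower in slow/slow cells at each of the 4 stages. Of 36 other proteins of the major spliceosome 6 were higher and 5 lower in ESCs, 12 and 1 in NPCs, 6 and 5 at the PSA-NCAM+ stage and 4 and 3 in neurons. Of 11 proteins of the minor spliceosome, which removes a rare class of introns, 1 was higher and 2 lower in ESCs, 1 and 2 in NPCs, 0 and 3 at the PSA-NCAM+ stage and 2 and 2 in neurons. Of 17 genes of snRNP assembly, such as the SMN complex and Prmt5, 6 were higher and 0 lower in ESCs, 11 and 2 in NPCs, 10 and 1 at the PSA-NCAM+ stage and 2 and 4 in neurons. Read against the 29.3% of all genes that were higher in NPCs and the 23.4% in neurons, the assembly genes stood above the background in NPCs and below it in neurons.

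The largest change among them was that of Snrpn, the neuronal paralogue of Snrpb, which is imprinted and whose transcript also encodes Snurf. In WT cells Snrpn read 56.6, 61.1 and 67.1 CPM in ESCs, 86.4, 86.1 and 88.0 CPM in NPCs, 65.4, 75.0 and 69.2 CPM at the PSA-NCAM+ stage and 587, 553 and 530.3 CPM in neurons. Snrpn in slow/slow cells read 75.1, 80.8 and 79.0 CPM in ESCs, 264, 232 and 226 CPM in NPCs, 129, 199 and 203 CPM at the PSA-NCAM+ stage and 269, 287 and 272 CPM in neurons. It was higher in slow/slow NPCs and PSA-NCAM+ cells and lower in slow/slow neurons, with no overlap at these stages. The log2 changes of Snrpn were 0.35 ± 0.12 (FDR = 0.0256) in ESCs, 1.47 ± 0.12 (FDR = 7.57e-09) in NPCs, 1.34 ± 0.12 (FDR = 2.06e-08) at the PSA-NCAM+ stage and -1.01 ± 0.12 (FDR = 7.38e-07) in neurons, and it rose by 3.18 ± 0.13 (FDR = 4.4e-15) from WT ESCs to WT neurons. Snrpb therefore fell while its neuronal paralogue rose over WT differentiation, at -0.60 ± 0.11 (FDR = 5.34e-05) for Snrpb.

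By the same rule the largest changes of other pathway genes were Cwc22, which loads the exon junction complex, at 1.18 ± 0.11 (FDR = 8.13e-08) and Prpf40b, a U1-associated protein, at -0.75 ± 0.09 (FDR = 1.78e-06) in ESCs. In NPCs they were Gemin4 of the SMN complex at 1.40 ± 0.20 (FDR = 7.47e-06), Prpf40b at -1.05 ± 0.09 (FDR = 1.59e-08) and Zrsr1 at -0.85 ± 0.35 (FDR = 0.0442). Lsm6 at 1.11 ± 0.16 (FDR = 8.39e-06) and Armc7 at -0.79 ± 0.16 (FDR = 0.000339) followed Snrpn in PSA-NCAM+ cells. In neurons Gemin8 changed by 1.35 ± 0.27 (FDR = 0.00032), Xab2 by 0.79 ± 0.08 (FDR = 1.35e-07), Armc7 by -1.20 ± 0.16 (FDR = 3.91e-06) and Zrsr1 by -1.09 ± 0.35 (FDR = 0.0123). In ESCs Lsm6 at 0.69 ± 0.16 (FDR = 0.00171) and Ctnnbl1 at -0.49 ± 0.14 (FDR = 0.00829) also passed.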

How the data were processed

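Poly(A)+ RNA of 24 samples was sequenced from stranded libraries as 75-base paired ends, base called with bcl2fastq 2.17.1.14 per the submitters' processing notes. The authors counted reads per gene with vast-tools on mm9 and deposited the raw gene counts per sample together with 1 mean RPKM per group, which they scaled for gene length and depth and which served here only to order levels. Splicing was quantified with the same tool, and the deposited PSI values are percentages per event and sample, each with a string of quality scores and corrected inclusion and exclusion reads. The version of the gene annotation used for counting and the use of strand are not given in the sources used here. Columns of the authors' own fold changes and FDR values, and a second splicing table with 1 PSI per group and the authors' calls, were not used. The number of sample columns left unused for want of a label was 0.

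Of 22667 genes listed, 1114 had no value, and 16627 of the 21553 with counts passed filterByExpr. They were fitted in 1 model of 8 groups with edgeR 4.0.16 (TMM scaling, quasi-likelihood F test, 16 residual degrees of freedom) in R 4.3.3, and a gene was called at a Benjamini-Hochberg FDR under 0.05. Errors after ± are standard errors of log2 changes. Totals of 32974432 to 104466886 counts per library left the spread between replicates, a biological coefficient of variation of 0.164, as the larger error. Splicing events passing the study's read filters were called from beta posteriors of the reads (dPSI over 10 points, probability over 0.95), with limma 3.58.1 on logit PSI as an alternative. DESeq2 1.42.0, its size factors, upper-quartile scaling, no filter on low counts, a fit of only the samples compared, a replicate block and leaving out each library were the other alternatives, and leaving out replicate 1 of both PSA-NCAM+ groups was added after the data were seen. Scripts were tested on simulated data. Replicate numbers paired the samples in PSA-NCAM+ cells, where same-numbered WT and slow/slow deviations correlated at 0.54, 0.45 and 0.40. Gene coordinates are GENCODE M21 on GRCm38, exons printed from it were matched to the mm9 splicing events by gene, length and spacing without converting coordinates, and copies were sought with BLAST+ 2.17.0.

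The members and lists were chosen with earlier results of these data known. Named were, for each genotype comparison, the 5 called members with the largest change each way and the largest of each role group, for each stage comparison the 4 with the largest change each way, for each interaction the 6 with the smallest FDR, every called splicing event, and the 2 other pathway genes with the largest change each way. Members named at 2 or more stages are given in every library. Remaining members were added by range.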

Additional observations from a re-analysis of the deposited data

Results flagged for a closer look

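By the interaction test of edgeR 5 members had another genotype effect in neurons than in ESCs, and the differences of log2 changes were -0.73 for Snrnp200, -0.66 for Prpf8, -0.53 for Sf3b1, -0.43 for Bcas2 and 0.37 for Ddx23. Ddx23 lies on chromosome 15, whose median log2 change was -0.60 in ESCs and -0.08 in neurons, and the part of the chromosome was not tested. Among the named other genes of the pathway the same test passed for Snrpn at -1.36, Cwc22 at -1.04, Armc7 at -0.91, Gemin8 at 1.08, Prpf40b at 0.89, Ctnnbl1 at 0.70 and Xab2 at 0.39. Between NPCs and ESCs it passed for Sf3b4 at 0.57, Prpf8 at 0.51 and Sf3a2 at 0.45, and outside the members for Snrpn at 1.12 and Cwc22 at -0.65.

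For a pair of splicing events every slow/slow library lay on one side of WT in NPCs and on the other side in neurons, and the difference between the stages was not tested. The upstream U2af1 exon stood at -7.40 points in NPCs and 10.7 points in neurons, and the 1813-base intron of Sf3b1 at -9.75 and 6.80 points.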

How the results depend on the processing

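Of 1174 alternative values of the 90 changes named for 29 genes, 1059 kept direction and side of the threshold, 79 were no longer called, 34 became called and 2 reversed. The reversals were both of Usp39 in PSA-NCAM+ cells, -0.07, which became 0.11 without slow/slow replicate 1 and 0.10 without replicate 1 of both genotypes, and which ranged from -0.14 to 0.11 without 1 library. The median difference of the members between the neuron and ESC genotype effects, -0.16, became 0.0031 with upper-quartile scaling.

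Fitting only the samples compared gave 21 called members in ESCs (20 higher, 1 lower) instead of 9, 3 in PSA-NCAM+ cells (all higher) instead of 22, 28 in neurons (23 higher, 5 lower) instead of 7, 20 instead of 5 for neurons against ESCs and 13 instead of 3 for NPCs against ESCs, and the cause was not tested. Upper-quartile scaling gave 16 in neurons and 1 for NPCs against ESCs, no filter on low counts gave 1 for NPCs against ESCs, and for neurons against ESCs DESeq2's size factors gave 8 and DESeq2 gave 9. The replicate block gave 18 in ESCs, 11 in neurons and 10 in each interaction, and 27 in PSA-NCAM+ cells. Shares of all genes are given above for upper-quartile scaling in neurons and for the replicate block in PSA-NCAM+ cells. The other counts of these fits have no such share beside them and are not read against a background. Outside PSA-NCAM+ cells the numbers do not pair the samples: 2 of 6 samples in ESCs and 0 in NPCs and neurons correlated best with their own number, against 6 of 6 in PSA-NCAM+ cells.

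Without 1 library the counts ranged from 8 to 12 in ESCs, 21 to 24 in NPCs, 13 to 32 in PSA-NCAM+ cells, 5 to 6 in neurons, 5 to 7 for neurons against ESCs and 0 to 2 for NPCs against ESCs. Called exons ranged from 0 to 1 in PSA-NCAM+ cells (0 without slow/slow replicate 2 or 3 or WT replicate 3) and in neurons (0 without slow/slow replicate 1 or 2). Called introns ranged from 0 to 1 in NPCs and between neurons and ESCs in each genotype. A threshold of 15 points left 0 of the 1 called exon in PSA-NCAM+ cells, 0 of 1 in neurons, 0 of 1 between WT neurons and ESCs and 0 of 2 in slow/slow cells, and limma gave 0 in PSA-NCAM+ cells, also with the replicate block.

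Since 0 members changed 2-fold between genotypes, the calls rest on small changes over 3 replicates. In PSA-NCAM+ cells 12 of the 22 calls were lost with 1 library.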
